A study of Homo sapiens with 2 samples.

Results

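The genes that make, sense and remove prostaglandin E2 were compared between Ca9-22 cells carrying a PTHLH vector and Ca9-22 cells carrying an empty vector. Members were all probe sets that the platform annotation pairs with PTGS1, PTGS2, PTGES, PTGES2, PTGES3, PTGER2, PTGER4, HPGD, PLA2G4A or SLCO2A1 alone. They were 19 of 54675 probe sets and stood for 10 of 19775 genes. Each probe set pools several short oligonucleotides that measure the transcripts of a gene together. Of the 10 genes, 3 were at least 1.5-fold lower with PTHLH by their brightest probe set, namely the cyclooxygenase gene PTGS2, the phospholipase gene PLA2G4A and the EP4 receptor gene PTGER4, and 0 were at least 1.5-fold higher. The share of all genes past the same limit was 3.52% lower and 1.97% higher.

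Ca9-22 is an established human cell line of squamous carcinoma of the gingiva. Both cultures were infected with a lentiviral vector, empty or carrying PTHLH, and both were selected with blasticidin, so that the control cells had the vector backbone and the drug too. RNA from 1 culture of each kind was hybridised to 1 Affymetrix U133 array. With 1 array per condition the differences lack a replicate check, and neither a p-value nor a spread between cultures can be had. The description field of the samples names another line, CX-1, and another gene, RAB3C, and the titles, characteristics and methods were followed instead. PTHLH has no probe set named here, so the level of the introduced gene is not analysed here. All 7 measured markers of squamous epithelium lay above the array median on both arrays (KRT6A, KRT17 and TP63 are not named here), and none was 1.5-fold changed. Their summed intensity was 25820 with the empty vector and 28673 with PTHLH. The summed intensity of 6 fibroblast markers was 2519 and 1741, nearly all of it from COL1A1 (2437 and 1652). The summed intensity of 4 leukocyte markers was 65.3 and 63.0, and that of 3 endothelial markers was 179 and 177. The part of these cell types in the results was not tested.

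Prostaglandin E2 is made in steps. Cytosolic phospholipase A2, encoded by PLA2G4A, releases arachidonic acid from membranes, the cyclooxygenases PTGS1 (COX-1, usually constitutive) and PTGS2 (COX-2, usually induced by cytokines and growth factors) turn it into prostaglandin H2, and the synthases PTGES, PTGES2 and PTGES3 form prostaglandin E2. The product signals through receptors that include EP2 (PTGER2) and EP4 (PTGER4), both of which raise cyclic AMP. It is taken back into cells by the transporter SLCO2A1 and inactivated by the dehydrogenase HPGD. COX-2 is known to be raised in many squamous carcinomas of the head and neck.

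The 250 bases before the transcription start of the 3 lower genes are given because these are the members whose brightest probe set differed. The sequences are from RefSeq (GRCh38.p14) and run 5′ to 3′ along the gene's own strand. Capitals mark matches, on either strand, to any of 5 short motifs: the cyclic AMP response half-site CGTCA, the AP-1 site TGANTCA, the C/EBP site TTNNGNAA, the TATA box TATAAA and the 10-base NF-kB consensus. The first lies at chr1:186680424-186680673 on the minus strand, the second at chr1:186828699-186828948 on the plus strand and the third at chr5:40679665-40679914 on the plus strand.
PTGS2: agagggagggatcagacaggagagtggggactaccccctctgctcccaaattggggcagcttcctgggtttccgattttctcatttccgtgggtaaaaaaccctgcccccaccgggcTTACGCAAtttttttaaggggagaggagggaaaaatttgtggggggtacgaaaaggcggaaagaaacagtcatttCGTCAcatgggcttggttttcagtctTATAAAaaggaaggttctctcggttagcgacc
PLA2G4A: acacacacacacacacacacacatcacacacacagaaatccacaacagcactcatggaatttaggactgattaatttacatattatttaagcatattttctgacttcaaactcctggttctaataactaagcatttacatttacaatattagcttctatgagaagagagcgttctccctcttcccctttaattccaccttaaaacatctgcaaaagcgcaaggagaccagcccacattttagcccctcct
PTGER4: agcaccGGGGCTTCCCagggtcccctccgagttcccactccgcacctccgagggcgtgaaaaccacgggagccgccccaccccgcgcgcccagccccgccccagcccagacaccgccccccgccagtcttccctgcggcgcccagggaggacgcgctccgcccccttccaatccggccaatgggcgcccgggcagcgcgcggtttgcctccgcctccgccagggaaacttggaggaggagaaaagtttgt

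The PTGS2 window held a C/EBP match that ends 126 bases before the start, a CGTCA from 58 to 54 bases before it and a TATA box from 32 to 27 bases before it. The PTGER4 window held an NF-kB match from 244 to 235 bases before the start, and the PLA2G4A window held no match. The 3 windows thus had no motif in common among the 5 searched. Of 35116 RefSeq promoter windows of this length, 21.2% held CGTCA, 6.57% the AP-1 site, 33.2% the C/EBP site, 10.7% TATAAA and 9.96% the NF-kB consensus. Of the 10 members, 9 had a window, with 13 windows in all. Of these 13, 4 held CGTCA, 0 the AP-1 site, 3 the C/EBP site, 2 TATAAA and 4 the NF-kB consensus. CGTCA and the NF-kB consensus were both also found in windows of HPGD, PTGES3 and PTGER2, which lay within 1.5-fold. A match is a run of letters and not a measured binding site, and no match says only that these letters were not in this window.

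PLA2G4A, whose product cleaves arachidonic acid from phospholipids, gave intensities of 114 (empty vector) and 58.9 (PTHLH). The PTHLH array was thus lower by 1.94-fold, a log2 difference of -0.96. Both values lay above the medians of all probe sets, 19.5 with the empty vector and 19.4 with PTHLH. The gene has only 1 probe set, so no second one can be set against it. The error available within these arrays was how far the 2 brightest probe sets of a gene lay apart, equal to an SD of 0.21 for a log2 difference across 3771 genes whose second probe set had a mean log2 level of 5 to 8. It was 0.25 below a level of 5 (5959 genes) and 0.12 at 8 or more (793 genes). This spread covers differences between probes and not between cultures, and the difference of PLA2G4A was larger than it. Of all probe sets at that level, 4.42% were at least 1.5-fold lower, and of those below a level of 5, 1.86%. Less RNA per cell and fewer cells with the transcript cannot be told apart in RNA from a whole culture.

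PTGS2, the inducible cyclooxygenase, was dim. Its brighter probe set, 204748_at, had an intensity of 23.2 with the empty vector and 10.9 with PTHLH, a log2 difference of -1.09. It thus lay above the array median with the empty vector and below it with PTHLH. The other, 1554997_a_at, had 11.3 and 9.55, a log2 difference of -0.24, and lay below both medians. Both were lower with PTHLH, the brighter one by more than the SD of 0.25 for dim probe sets and the other by less than it. The range between them, 0.86, was wider than in 98.0% of the 5015 genes with 2 probe sets. With an offset of 16 added to both intensities, which shrinks differences near the background, the log2 difference of 204748_at was -0.55, within 1.5-fold.

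PTGS1, the constitutive cyclooxygenase, had 4 probe sets that did not share a direction. Its brightest, 205128_x_at, had 319.7 and 338 (empty vector and PTHLH), a log2 difference of 0.08. The second brightest, 215813_s_at, had 195 and 228, a difference of 0.23. Both carry a suffix, x or s, that Affymetrix gives to probe sets that can bind several transcripts. The next, 238669_at, has no suffix and was lower with PTHLH, 119.7 against 247, a log2 difference of -1.04 or 2.06-fold. The dimmest, 205127_at, also without a suffix, had 37.8 and 34.5, a difference of -0.13. The range of 1.27 between them was wider than in 99.1% of the 1393 genes with 4 probe sets. PTGS1 therefore counted as within 1.5-fold by its brightest probe set and as lower by the probe set of largest change, by which 4 of the 10 members and 4.98% of all genes were lower. Among 10523 genes with at least 2 probe sets, 5.58% had this arrangement, with the brightest within 1.5-fold and another probe set past it in either direction.

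**Figure D1:**
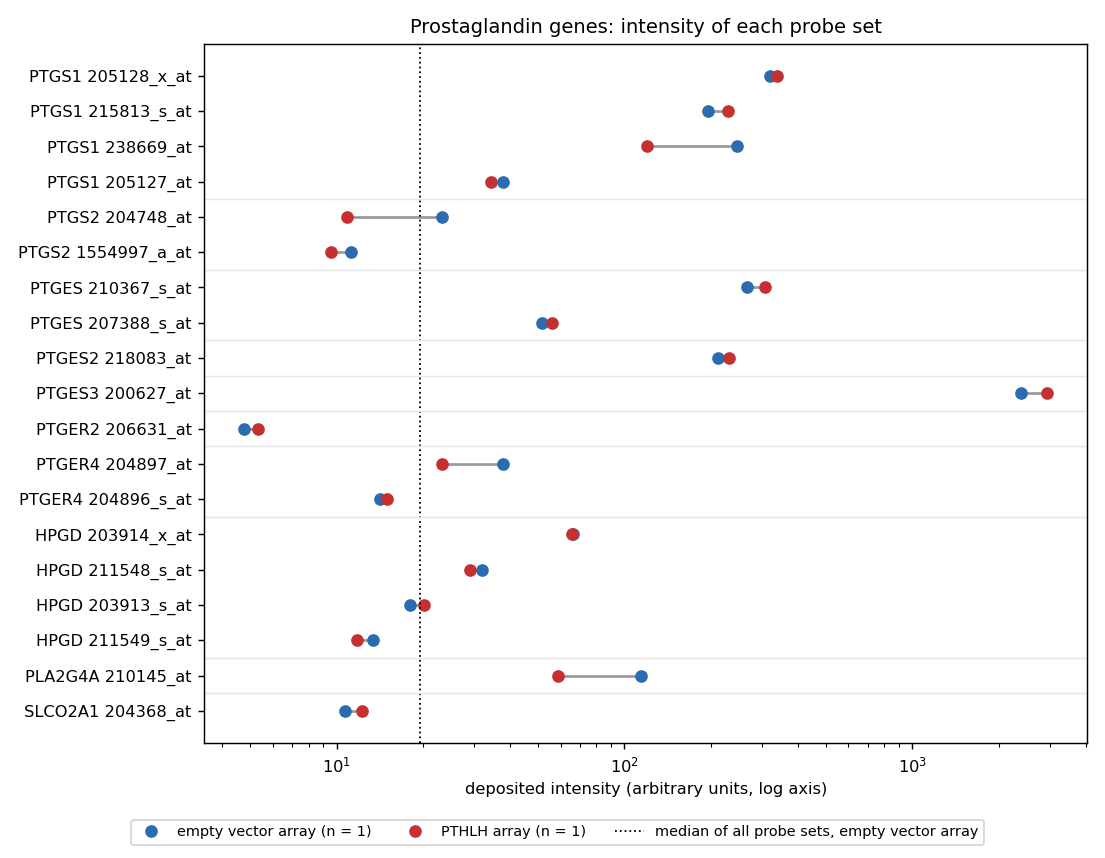
Deposited intensity of the 19 probe sets of the 10 genes (log axis, arbitrary units), with empty vector in blue and PTHLH in red, 1 array each, and a line between the pair. The long lines run to the left, towards lower PTHLH values, for PTGS1 238669_at, PTGS2 204748_at, PTGER4 204897_at and PLA2G4A 210145_at, and the other 15 pairs lie within 1.5-fold.

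The terminal synthases were slightly brighter on the PTHLH array. PTGES, the membrane-bound synthase that is often induced with COX-2, had 266 and 309 by its brighter probe set and 51.7 and 55.9 by the other, log2 differences of 0.21 and 0.11. PTGES2, a synthase of the Golgi membrane, had 211 and 232, a difference of 0.13. PTGES3, the cytosolic synthase that is also the HSP90 co-chaperone p23, had 2389 and 2946, a difference of 0.30. All 4 probe sets were thus higher with PTHLH and all lay within 1.5-fold. The difference of PTGES3, which has only 1 probe set, was larger than the SD of 0.12 for genes whose second probe set is bright. The second probe set of PTGES had a mean log2 level of 5.75, where the SD was 0.21. The difference of its brighter probe set was about equal to that SD. Those of PTGES2 and of the dimmer PTGES probe set were smaller than the SD of 0.21 at their level.

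Of the receptors, PTGER4 was lower and PTGER2 was near the bottom of the scale. PTGER4, which encodes EP4, had 37.7 with the empty vector and 23.3 with PTHLH by 204897_at, a log2 difference of -0.69 or 1.62-fold lower, more than the SD of 0.25 for dim probe sets. With the offset of 16 the difference was -0.45, within 1.5-fold. Its dimmer probe set, 204896_s_at, had 14.1 and 15.0, a difference of 0.09, below both medians. The probe sets of PTGER4 thus opposed each other in sign, and their range of 0.78 was wider than in 97.2% of the genes with 2 probe sets. With the median over probe sets PTGER4 came within 1.5-fold, and 2 of the 10 members and 2.25% of all genes were lower. PTGER2, which encodes EP2, had 4.78 and 5.32 by its only probe set, both below the medians, and the log2 difference of 0.15 was smaller than the spread for dim probe sets.

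The genes of uptake and breakdown lay within 1.5-fold by every probe set. HPGD, the enzyme that oxidises prostaglandin E2 to an inactive form, had 66.3 and 65.5 by its brightest probe set, a log2 difference of -0.02. Its other 3 had log2 differences of -0.15, 0.16 and -0.19, and the range over all 4 was 0.35. That range was wider than in 36.0% of genes with 4 probe sets, and each of the 4 differences was smaller than the spread between probe sets. SLCO2A1, the prostaglandin transporter, had 10.7 and 12.3, a difference of 0.20, below both medians.

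Over the 10 genes the median log2 difference was 0.11 by the brightest probe set, against 0 over all genes. The 7 genes within 1.5-fold ran from -0.02 to 0.30. Of the 19 probe sets, 4 were at least 1.5-fold lower, 0 were at least 1.5-fold higher, 10 had a difference above 0 and 9 below it. Among all 41097 probe sets with 1 gene symbol, 2.78% were at least 1.5-fold lower and 2% higher. In the order of differences over those probe sets, PTGS2 204748_at stood at percentile 0.35, PTGS1 238669_at at 0.43, PLA2G4A at 0.60, PTGER4 204897_at at 1.66 and PTGES3 at 88.3. In 5 genes (PTGES2, PTGES3, PTGER2, PLA2G4A and SLCO2A1) only 1 probe set was named, and 5 of the 19 probe sets lay below both medians.

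**Figure D2:**
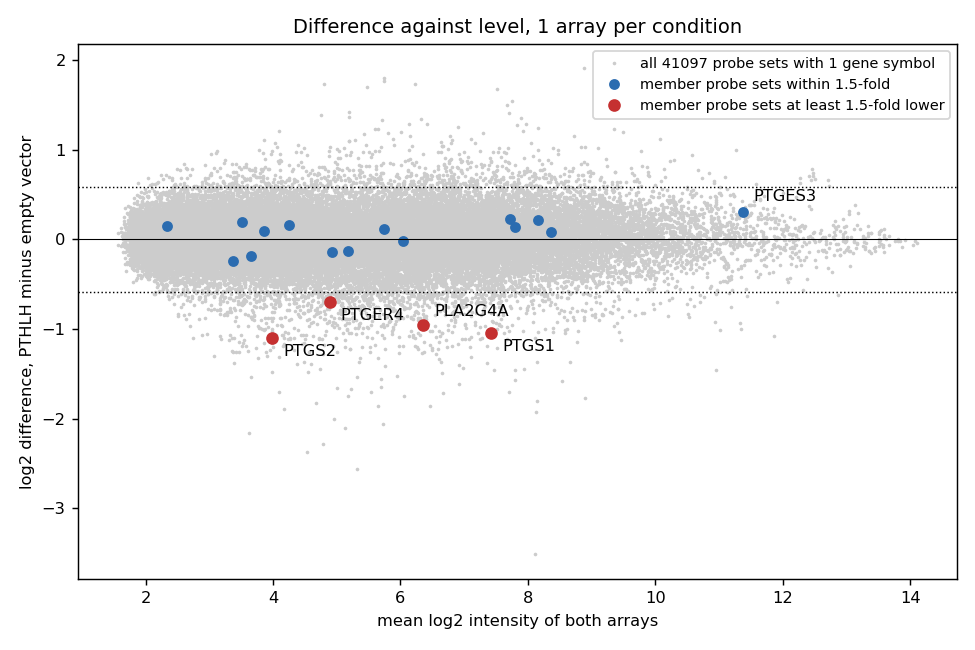
Log2 difference (PTHLH minus empty vector) against the mean log2 intensity of both arrays, for all 41097 probe sets with 1 gene symbol (grey) and the 19 member probe sets (blue within 1.5-fold, red at least 1.5-fold lower). Dotted lines mark 1.5-fold in either direction, and the 4 red points lie at -1.09 (PTGS2), -1.04 (PTGS1), -0.96 (PLA2G4A) and -0.69 (PTGER4).

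PTGS2 and PLA2G4A are next to each other among the protein-coding genes of chromosome 1, with 0 others between them. Of the 6 protein-coding genes on either side of the pair, 11 of 12 were measured, and only IVNS1ABP, the farthest on the PTGS2 side, was at least 1.5-fold lower (309.96 to 203, a log2 difference of -0.61). None of them was 1.5-fold higher. The immediate neighbours, PDC beside PTGS2 and BRINP3 beside PLA2G4A, had log2 differences of -0.27 and -0.09, both from intensities below the medians, and 5 of the 11, IVNS1ABP among them, had their brightest probe set above a median. The other 4 were HMCN1, which was higher with PTHLH but within 1.5-fold (20.0 and 28.5, a difference of 0.51), and TPR, ODR4 and RGS2, with differences of -0.22, -0.12 and -0.01. The 3 genes anywhere in the genome whose pair of log2 intensities lay nearest to that of PTGS2 were TMEM170B (22.3 and 11.2), TNFRSF19 (24.1 and 10.5) and POU2F3 (23.8 and 10.1), at Euclidean distances of 0.07, 0.07 and 0.11 over the 2 arrays. They were picked for this nearness, so their like brightness and difference follow from the choice. A shared regulation was not tested.

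Other genes of the pathway were read from 7 lists, in which 80 of 88 genes were measured. Of these, 7 were at least 1.5-fold lower (8.75%) and 1 was higher (1.25%), beside 3.52% and 1.97% of all genes, with a median log2 difference of -0.05. Of 7 other synthases and reductases, none was 1.5-fold changed and the median was -0.15. AKR1C3, which makes prostaglandin F2 alpha, had 596 and 442, a difference of -0.43, and PTGDS, the prostaglandin D2 synthase, had 56.9 and 44.4, a difference of -0.36. The other probe sets of PTGDS, also above the median, had smaller differences of -0.10 and -0.09. None of the 7 other prostanoid receptors was 1.5-fold changed, and 3 of them were below both medians. PTGER1 (EP1) had 89.9 and 78.9, a difference of -0.19, and PTGDR2 had 29.5 and 26.0, a difference of -0.18. The other probe sets of PTGER1 had differences of -0.34 and, below both medians, 0.28.

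Of 6 genes of export, uptake and breakdown, 1 was lower. It was PTGR2, a prostaglandin reductase, which was below both medians (a log2 difference of -0.64) and is named here after its values were seen. PTGR1, another reductase, had 329.9 and 223, a difference of -0.57 just inside the limit. The dimmer probe sets of PTGR1 had differences of -0.32 and -0.07. PTGR3 had 32.5 and 38.7, a difference of 0.25, and a second probe set, above the median with PTHLH alone, had 12.4 and 22.8, a difference of 0.88. Of 16 genes of arachidonate release and reacylation, none was 1.5-fold changed by its brightest probe set. By the probe set of largest change, MGLL and PLA2G12A, named after their values were seen, were lower and ACSL4 was higher. ACSL4, which couples arachidonate to coenzyme A, had 89.7 and 60.6, a difference of -0.57, while a dim probe set of it went the other way (4.93 and 7.44, a difference of 0.59). The phospholipase activator PLAA had 22.7 and 32.9, a difference of 0.54, with -0.09 and 0.15 by its other probe sets, which were dim.

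In the lipoxygenase branch, the competing route for arachidonate, 1 of 12 was lower, the epidermal lipoxygenase ALOX12B (28.0 and 18.5, a difference of -0.59). It lay below the median with PTHLH and came within 1.5-fold under quantile normalization. LTA4H, the leukotriene A4 hydrolase, had 1668 and 1364, a difference of -0.29. Of 15 genes of Gs and cyclic AMP signalling below EP2 and EP4, 1 was lower, the phosphodiesterase PDE4A (82.8 and 42.0, a difference of -0.98), whose other 4 probe sets were dim and lay between -0.21 and 0.23. CREM, a cyclic AMP-responsive transcription factor, had 78.9 and 108 by its brightest probe set, a difference of 0.45. This was the highest of its 6 probe sets, which ran down to -0.17 and did not share a direction.

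Of 17 measured genes known to regulate PTGS2 expression, 4 were lower (23.5%) and 1 was higher (5.88%), with a median log2 difference of -0.18. The shares of all genes were 3.52% lower and 1.97% higher. IL1B, an interleukin that induces COX-2, had 525 and 151 by one probe set and 546 and 144 by the other. Both probe sets were thus lower with PTHLH, with log2 differences of -1.80 and -1.93. IL1A had 66.6 and 21.0, a difference of -1.67, with -0.44 by a dim second probe set. The AP-1 subunits JUN (649.8 and 252) and FOS (20.7 and 13.0) had differences of -1.37 and -0.67. JUN has 4 probe sets, from -1.56 to -0.42. FOS has 1, which lay below the array median with PTHLH. It thus passed the limit for named genes only through the empty vector array, where it was higher. NFKB1, a subunit of NF-kB, was the only one higher, 80.4 and 137 by its single probe set, a difference of 0.77. The lists were written with earlier results of these arrays known, so their counts are no independent evidence of a direction.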

How the data were processed

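Biotin-labelled cRNA of each culture was hybridised to 1 Affymetrix U133 array. The authors deposited 1 intensity per probe set, on a linear scale. Their background correction, normalization and probe summary were not given in the sources used here. How these steps treat dim probe sets therefore cannot be judged. Precision is limited by the number of arrays. Log2 intensity with the empty vector was subtracted from that with PTHLH, without further scaling. Of 54675 probe sets, 41097 had 1 gene symbol, 1801 had several and 11777 are unnamed here. Symbols were updated through gene identifiers of GRCh38.p14, so that COX1 and GBF1, older names of members that the annotation uses for other genes, were not taken. A gene was represented by its probe set of highest mean log2 intensity, and the 1.5-fold limit is the one by which the study defined its gene signature. No test was run.

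The members and lists were chosen with earlier results of these data known. Named pathway genes were those at least 1.5-fold changed and above a median, or else the 2 of largest difference in a list. The 3 genes nearest to PTGS2 were taken without x probe sets. Alternatives were quantile normalization, centring on brighter probe sets, a floor at percentile 40, other rules for a gene's probe set, leaving out x and s or dim probe sets, and a 2-fold limit. An offset of 16 and a limit to members above both medians were added after seeing the data. Steps were tested on simulated data. Python 3.11.15, pandas 2.3.3, numpy 2.4.6 and matplotlib 3.10.9 were used.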

Additional observations from a re-analysis of the deposited data

How the results depend on the processing

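No paired analysis was possible because each condition has 1 array and the labels give no replicate numbers. PTGS2, PLA2G4A and PTGER4 were the lower members by brightest probe set, and under quantile normalization and a floor at percentile 40 the count stayed at 3. Centring on brighter probe sets left the differences as they were, so it could not change any count. The count was also 3 among probe sets above at least 1 median (8 members measured). PTGS2 passed that limit only through the empty vector array, where it was higher, so its place there says nothing about stability. With the median over probe sets it was 2 (PLA2G4A and PTGS2), with members above both medians 2 (PLA2G4A and PTGER4), and with the probe set of largest change, or without x and s probe sets, 4, with PTGS1 added (8 members measured in the latter case). At a 2-fold limit 1 member was lower (PTGS2), and with an offset of 16 also 1 (PLA2G4A). The log2 difference of PTGS2 204748_at was -0.83 with the floor. No member was 1.5-fold higher in any of these settings. Under quantile normalization 8 pathway genes were lower and 1 was higher. ALOX12B came within 1.5-fold there, while PTGR1 and CEBPB, a regulator of PTGS2 named after its values were seen, passed the limit. The lower regulators of PTGS2 then numbered 5. Of the pathway genes, 3 were lower and 0 higher at a 2-fold limit, 11 lower and 5 higher by the probe set of largest change, and 6 lower and 2 higher without x and s probe sets. The regulators of PTGS2 went from 4 lower to 2 without those probe sets, as IL1A and JUN were then represented by dimmer probe sets within 1.5-fold. Over all 19775 genes, 696 were lower and 390 higher. These counts were 674 and 373 under quantile normalization and 643 and 348 with the floor. They were 444 and 248 by the median probe set, 984 and 689 by the largest change, and 145 and 36 at 2-fold. Above at least 1 median, 643 of 13564 genes were lower and 349 higher. Without x and s probe sets, 583 of 17100 were lower and 321 higher. The offset of 16 and the limit to both medians were applied to members alone. Dim signal limits what can be read from PTGS2, PTGER4, PTGER2 and SLCO2A1, and among the pathway genes from FOS and ALOX12B.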

Other observations

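A share of the deposited values lay on a regular grid, at 0.45 above a multiple of 0.5 within a tolerance of 0.001. On both arrays together 1933 probe sets (3.54%) did so, and 4.07% did on the empty vector array, where evenly spread decimals would give 0.4%. Of the 19 prostaglandin probe sets, 3 were among them, the only probe sets of PLA2G4A (114.45 and 58.95) and of PTGES3 (2389.45 and 2946.45) and PTGS1 215813_s_at (195.45 and 228.45). Among probe sets with a mean log2 level of 5 to 8, 4.08% of the 1201 on the grid and 4.46% of the 11986 others were at least 1.5-fold lower on the PTHLH array. Of the pathway genes, the brightest probe sets of AKR1C3, PTGDS, PTGER1, CREM and MGLL, among others, also lay on the grid on both arrays. The part of this grid in the differences of PLA2G4A and of these genes was not tested. On both arrays the values of 3367 of all probe sets (6.16%) were identical, and none of these was among the 19 member probe sets. Of the pathway genes, the brightest probe sets of PTGDR, ALOX15B, LTC4S and LTB4R were identical on both arrays, as were dimmer probe sets of PTGR3. Their differences of 0 are thus exact ties.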
